A study of Mus musculus with 12 samples.

Results

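The inflammation-linked microRNAs miR-155, miR-146a and miR-146b were followed across 12 single-colour arrays of mouse embryonic fibroblasts. The 3 were chosen by name, as the non-control probes that the array design assigns to mmu-miR-155, mmu-miR-146a and mmu-miR-146b, and they are 3 of the 650 miRNAs on the array. All 3 were among the 175 miRNAs bright enough to be tested. The fibroblasts had a C57BL/6 background strain and were either wild type (ATF6aWT) or deficient in ATF6a (ATF6aKO), which sits in the membrane of the endoplasmic reticulum and, once cut free under protein-folding stress, acts as a transcription factor. Cells of either genotype received no drug or 2 ug/mL tunicamycin for 12 or 24 h. Tunicamycin blocks N-linked glycosylation, so that misfolded proteins build up in the endoplasmic reticulum. Each of the 6 groups held 2 arrays, from experiments that the design text calls independent, and the labels do not say whether a genotype came from more than 1 line or embryo. A miRNA array does not measure the ATF6a transcript, and the genotype labels were not checked against the targeted gene.

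miR-155 is processed from the non-coding transcript of the gene Mir155hg, which NF-kB and AP-1 activate in macrophages and lymphocytes after inflammatory stimuli. miR-146a and miR-146b are induced by the same kind of stimulus and repress TRAF6 and IRAK1. Both targets act in Toll-like receptor signalling upstream of NF-kB, and so the miR-146 pair is known as a brake on that pathway. In fibroblasts all 3 have been studied mainly in inflamed or ageing tissue.

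The mature sequences are shown because the pair of miR-146 forms share their seed, bases 2 to 8, which pairs with target transcripts and is printed here in capitals. They come from RefSeq (GRCm38.p6) and are written 5′ to 3′.
miR-155: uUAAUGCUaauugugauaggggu
miR-146a: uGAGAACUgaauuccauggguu
miR-146b: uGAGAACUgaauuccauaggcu
miR-155, which RefSeq lists as its 5p arm, has 23 bases and lies at chr16:84714143-84714165 on the plus strand, within Mir155hg. miR-146a lies at chr11:43374435-43374456 on the minus strand and miR-146b at chr19:46342790-46342811 on the plus strand, and both have 22 bases. They are identical at 20 of 22 positions and differ by G18A and U21C, counted from the 5′ end with the base of miR-146a first. miR-155 was the only RefSeq mouse mature miRNA with its seed, and the seed of miR-146a was shared by miR-146b alone. The deposited spot data give no probe sequences, and cross-hybridisation between the miR-146a and miR-146b probes was not tested.

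A level is the log2 of the background-subtracted spot intensity relative to the 75th percentile of 87 probes that were well above background on every array. A spot is well above background when the scanner software marks it so, and a probe when over 50% of its spots are. Signals below a floor of 0.0309 of the scaling value, log2 -5.02, were set to that floor. The untreated arrays had 160 to 166 miRNAs well above background, the first treated replicates 127 to 155 and the second treated replicates, all scanned in 1 run, 73 to 101. Treatment and slide cannot be told apart, because 1 slide carried the 4 untreated arrays and the other the 8 treated ones. Wild type and knockout arrays lay at different row positions of the slides throughout, and these too cannot be told apart. Of 9 fibroblast marker miRNAs on the array, 7 were well above background on every untreated and every first treated replicate, and 5 to 7 on the second treated replicates. miR-145 and miR-145* were not well above background on any array. None of 8 blood and immune cell markers and none of 6 epithelial markers were well above background on any array. In bulk RNA, fewer cells of a type and less RNA per cell cannot be told apart.

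In the scaling used here, miR-155 was highest in untreated wild type fibroblasts and lower in every other group. It fell in wild type cells by 0.69 on the log2 scale after 12 h of tunicamycin and by 0.88 after 24 h in the scaling used here. With normexp background correction these changes were -0.22 and -0.059, and neither was called. Untreated knockout cells had 1.91-fold less miR-155 than untreated wild type cells in the scaling used here. With normexp this log2 difference was -0.52 and was not called. In knockout cells the treated levels were lower than the untreated ones on every array, but neither difference passed the test.

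In untreated wild type cells the log2 level of miR-155 was -2.76 and -2.57 on the 2 arrays (mean -2.66 ± 0.14, SD, n = 2). After 12 h of tunicamycin it was -3.29 and -3.42 (-3.36 ± 0.089, SD, n = 2), and after 24 h -3.66 and -3.43 (-3.54 ± 0.16, SD, n = 2). All 4 treated wild type arrays lay below both untreated ones, and the 12 and 24 h means differed by about the spread between replicates. In untreated knockout cells the log2 level was -3.69 and -3.51 (-3.60 ± 0.13, SD, n = 2), which overlapped with wild type cells at 24 h. In knockout cells it was -3.86 and -4.24 after 12 h (-4.05 ± 0.27, SD, n = 2) and -4.03 and -4.05 after 24 h (-4.04 ± 0.019, SD, n = 2). These last groups overlapped each other and were the lowest of the 6. miR-155 was well above background on 10 of 12 arrays, the exceptions being the second replicates of knockout cells at 12 and at 24 h.

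**Figure D1:**
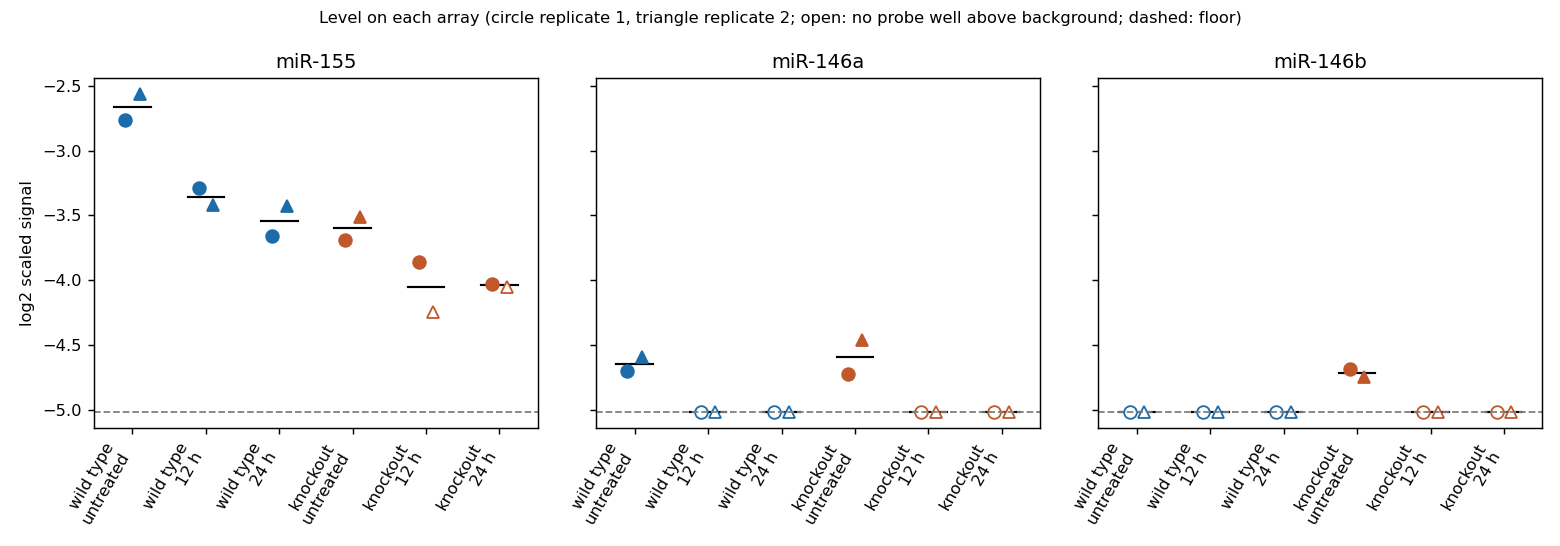
Log2 scaled signal of miR-155, miR-146a and miR-146b on each array, by group (circles replicate 1, triangles replicate 2, black lines group means, open markers arrays with no probe well above background, dashed line the floor at -5.02). miR-155 runs from a mean of -2.66 in untreated wild type cells to -4.05 in knockout cells at 12 h, while miR-146a leaves the floor on the untreated arrays and miR-146b on the untreated knockout arrays only.

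In limma's fit to all 6 groups, the change of miR-155 in wild type cells was -0.69 ± 0.15 (SE) at 12 h, a level 1.62-fold lower (adjusted p = 0.00819). At this time 38.3% of the 175 tested miRNAs were called lower, and the median change over all of them was -0.27. At 24 h the change was -0.88 ± 0.15, or 1.84-fold lower (limma, adjusted p = 0.00303), with 33.7% of all tested miRNAs called lower and a median change of -0.21. The groups did not overlap in either comparison, which was also so for 74.3% of tested miRNAs at 12 h and 70.9% at 24 h. Of the 7 tested fibroblast markers, 6 were called lower at 12 h and 5 at 24 h, with median changes of -0.89 and -0.85. Their part in the change of miR-155 was not tested.

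In knockout cells the log2 difference of miR-155 from untreated cells was -0.45 at 12 h (95% interval -0.80 to -0.093; limma, adjusted p = 0.0892). It was -0.44 at 24 h (95% interval -0.80 to -0.083; limma, adjusted p = 0.108), and 0.023 with normexp background correction. The dimmer miR-155 probe stood at the floor on the 4 treated knockout arrays, which limits the size of these differences. On the brighter probe alone they were -0.64 at 12 h and -0.62 at 24 h. With the floor lowered by 1 log2 unit they were -0.76 and -0.80. None of these passed. The groups did not overlap at either time, as for 52.6% of tested miRNAs at 12 h and 57.7% at 24 h. Called lower were 14.3% of tested miRNAs at 12 h and 8% at 24 h, and 4 and 3 of the 7 fibroblast markers, whose median changes were -0.67 and -0.55. The knockout minus wild type difference of the response was 0.24 ± 0.21 at 12 h (95% interval -0.26 to 0.75; limma, adjusted p = 0.594) and 0.44 ± 0.21 at 24 h (95% interval -0.065 to 0.94; limma, adjusted p = 0.245). The floor of the dimmer probe enters these values too. On the brighter probe alone they were -0.037 at 12 h and 0.22 at 24 h. With the floor lowered by 1 log2 unit they were -0.066 and 0.079. A smaller response of miR-155 in knockout cells was therefore not shown, although its change passed the test in wild type cells only. Of all tested miRNAs, 9.71% were called in either direction for this difference at 12 h and 13.1% at 24 h. With single arrays left out, the change of miR-155 from untreated knockout cells ranged from -0.64 to -0.26 at 12 h. At 24 h it ranged from -0.53 to -0.35. Whether either change passed depended on single 12 h knockout arrays. The difference of the response between genotypes passed in none of these fits.

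Between genotypes, untreated knockout cells had less miR-155 than wild type cells, with a log2 difference of -0.94 ± 0.15 (limma, adjusted p = 0.00272). The difference was -0.93 and -0.94 within the 2 scanning runs, each of which held 1 array of either genotype. Called lower in this comparison were 24.6% of tested miRNAs, and the groups did not overlap for 69.7%. Of the 7 fibroblast markers, 0 were called lower and 1 higher. At 12 h the difference was -0.69 ± 0.15, or 1.62-fold lower (limma, adjusted p = 0.0355), against 4% of tested miRNAs called lower and 26.3% without overlap. Within the runs it was -0.56 and -0.82. With the replicate number as a block the call at 12 h was lost (limma, adjusted p = 0.0546), while with the scanning run as a block it was kept (limma, adjusted p = 0.0467). The call was lost in 9 of 12 fits that each left out 1 array. The summed signal of the scanner software gave -0.024 at 12 h, and the deposited table turned the difference to 0.37 at 12 h and to 0.14 at 24 h. At 12 and 24 h the dimmer probe was at the floor on the treated knockout arrays, which limits the size of both genotype differences. At 24 h the brighter probe alone gave -0.67, and the floor lowered by 1 log2 unit gave -0.86, neither past the threshold. In the scaling used here the 24 h difference of -0.50 did not pass (95% interval -0.85 to -0.14; limma, adjusted p = 0.0985), with 5.14% of tested miRNAs called lower and 44.6% without overlap. Within the runs it was -0.37 and -0.63, and it passed without either 12 h knockout array (adjusted p = 0.0311 for each).

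**Figure D2:**
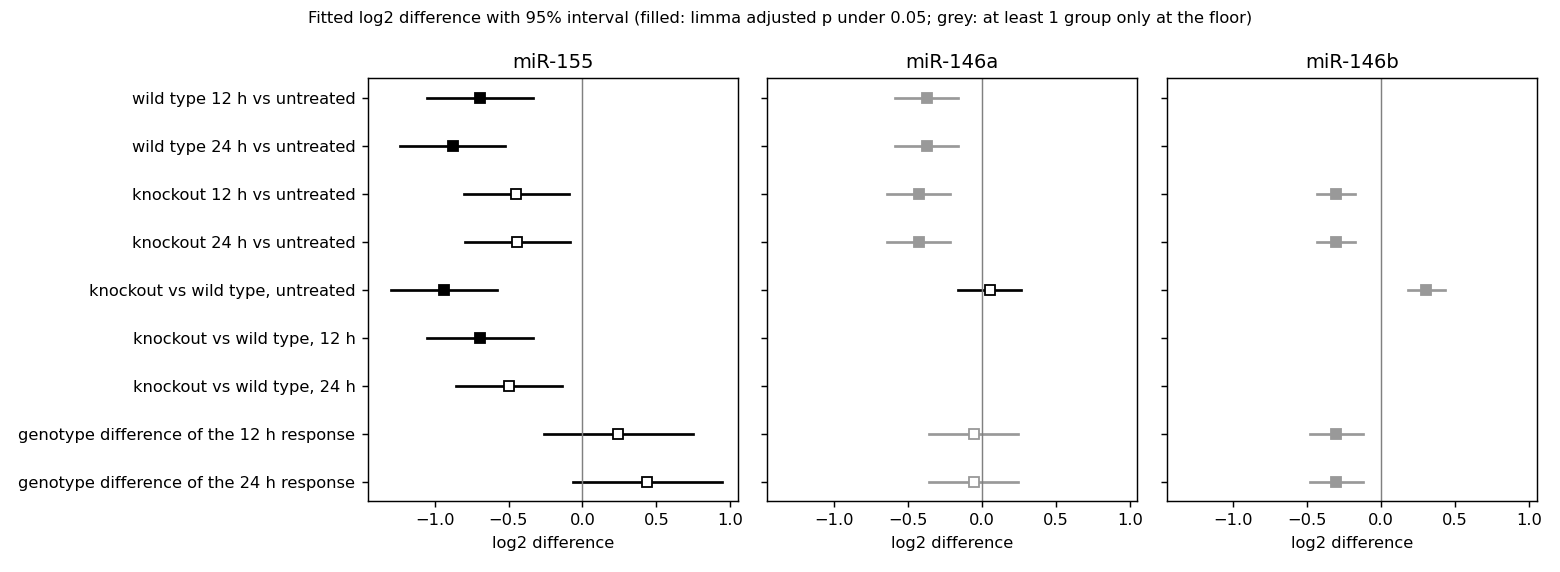
Fitted log2 differences of the 3 miRNAs in 7 comparisons between 2 groups and 2 differences of responses between genotypes, with 95% intervals (filled squares, limma adjusted p under 0.05; grey, at least 1 group only at the floor, where the filter fixed the direction; no mark, neither group well above background). All 7 two-group differences of miR-155 lie below 0 and 4 pass, and the fitted value of miR-146b between untreated genotypes lies above 0.

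The level of miR-155 rests on a pair of probes of unequal brightness, each printed as 10 spots. In untreated wild type cells the brighter probe had a mean intensity of 124.8 and 143.9, before any scaling between arrays. It was 148.4 and 64.4 in wild type cells at 12 h and 70.1 and 34.6 at 24 h. In untreated knockout cells it was 114.8 and 86.9. At 12 h in knockout cells it was 74.3 and 51.6, and at 24 h 59.1 and 34.7. Before scaling, the wild type 12 h arrays thus lay on either side of the untreated ones, and their group mean was 0.792 of the untreated mean. The group mean was 0.390 of the untreated mean at 24 h in wild type cells, and the untreated knockout mean was 0.751 of the untreated wild type mean. In knockout cells the ratios to untreated were 0.624 at 12 h and 0.465 at 24 h. The dimmer probe was well above background on 6 arrays and below the floor on the 4 treated knockout arrays, where its intensity was 12.6, 0.365, 10.3 and 4.87.

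**Figure D3:**
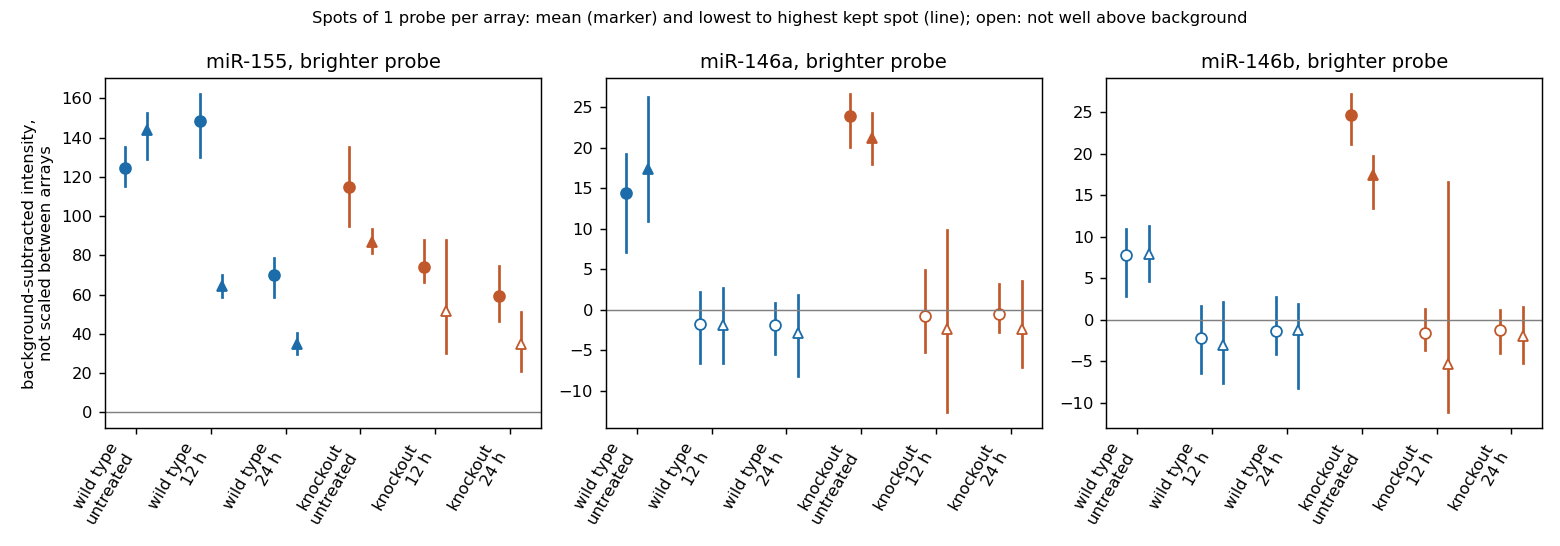
Background-subtracted intensity of the brighter probe of each miRNA on each array before scaling, with the mean (markers) and the range from the lowest to the highest kept spot (lines; open markers, not well above background; each panel has its own scale). The miR-155 probe spans 34.6 to 148.4 over the 12 arrays, and the means of the miR-146a and miR-146b probes lie below 0 on all 8 treated arrays.

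On the brighter probe alone, the log2 difference of miR-155 was -0.84 at 24 h in wild type cells (limma, adjusted p = 0.0289) and -0.88 between untreated genotypes (adjusted p = 0.0317). By that probe the call at 12 h in wild type cells was lost (-0.60, adjusted p = 0.0837), as was the genotype call at 12 h (-0.92, adjusted p = 0.0594). None of the 4 calls for miR-155 passed when arrays were scaled on all probes, quantile-normalized or background-corrected with normexp, or in the summed signal and deposited table given further on, and the call at 12 h in wild type cells was lost without the second untreated wild type array (-0.59, adjusted p = 0.0534). The change of miR-155 was below the median change of all 175 miRNAs in all 7 comparisons when scaled on all probes, quantile-normalized or corrected with normexp and in the scaling used here, in which it lay 0.36 to 0.81 below that median. Under normexp it lay 0.11 to 0.35 below it.

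**Figure D4:**
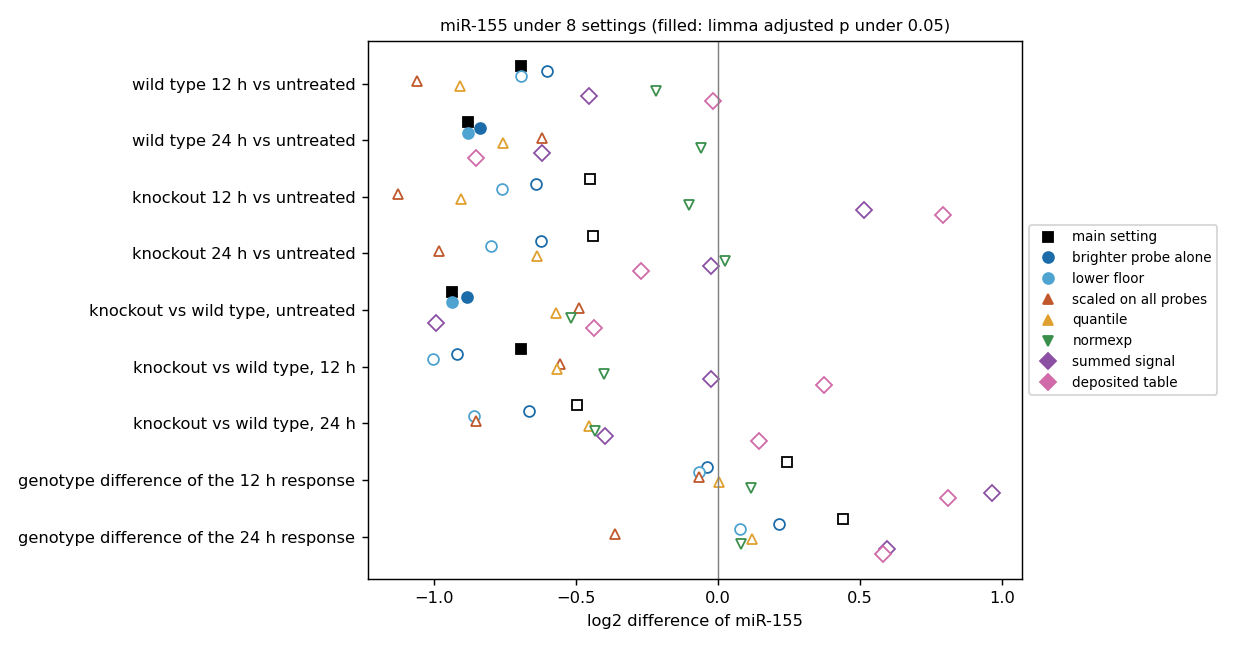
Log2 difference of miR-155 in each comparison under 8 settings (filled markers, limma adjusted p under 0.05). Between untreated genotypes all settings lie below 0, from -0.99 with the summed signal to -0.43 with the deposited table, whereas at 12 h in knockout cells the summed signal (0.51) and the deposited table (0.79) lie above 0.

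The scanner software's summed signal of miR-155 departed from its own probes in the run of second treated replicates. On the second 12 h knockout array it was 323.4, against 34.5 for the sum of the 2 probes' signals, a ratio of 9.37. The ratio was 3.57 on the second 24 h knockout array, 1.89 on the second 12 h wild type array and 2.26 on the second 24 h wild type array. The opposite sign at 12 h in knockout cells appeared in the measures that use this summed signal.

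miR-146a was detected in untreated cells of both genotypes and on no treated array. Its brighter probe had a mean intensity of 14.4 and 17.4 on the untreated wild type arrays and 23.9 and 21.3 on the untreated knockout arrays. On the treated wild type arrays the values were -1.70 and -1.88 at 12 h and -1.89 and -2.82 at 24 h. On the treated knockout arrays they were -0.688 and -2.34 at 12 h and -0.483 and -2.34 at 24 h. All 4 untreated arrays lay above all 8 treated ones, which were at or under local background. By scaled level, untreated and treated groups did not overlap for 74.3% of tested miRNAs at 12 h and 70.9% at 24 h in wild type cells. In knockout cells this was so for 52.6% and 57.7%. The second probe of miR-146a was well above background on no array.

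On the log2 scale miR-146a stood at -4.70 and -4.59 in untreated wild type cells and at -4.72 and -4.46 in untreated knockout cells, just above the floor of -5.02 at which all treated arrays lay. The fitted difference of treated from untreated cells was -0.37 ± 0.090 in wild type and -0.43 ± 0.090 in knockout cells at both times. miR-146a entered the tested set through its untreated groups only, so treated groups could only be lower, and no p-value is given for these differences. Their sizes are set by the floor. No fold is given, because on the second treated replicates the dimmest signals well above background were brighter than miR-146a in untreated cells. On those arrays a level of miR-146a like that of untreated cells might thus not have been marked well above background. On the first treated replicates the dimmest signals so marked, at log2 -5.50 to -4.75, were dimmer than miR-146a in untreated cells. Under normexp the sign of the difference of treated from untreated cells turned at 24 h (0.22 in wild type and 0.048 in knockout cells).

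Between untreated genotypes miR-146a differed by 0.055 ± 0.090 on the log2 scale (95% interval -0.16 to 0.27; limma, adjusted p = 0.824), and the groups overlapped. The treated arrays at the floor do not vary, which lowers this SE. Fitted to the untreated groups alone it was 0.12. Within the scanning runs the difference was -0.025 and 0.13, and without the second untreated knockout array it turned to -0.077. Before scaling, the intensity in knockout cells was 1.42 times that in wild type cells. With treated arrays at the floor, the difference of the response between genotypes was this value with its sign turned, -0.055 ± 0.13 at both times.

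Unlike miR-146a, which was well above background in untreated cells of both genotypes, miR-146b was well above background in untreated knockout cells only. Its brighter probe had a mean intensity of 24.6 and 17.4 on the untreated knockout arrays. On the untreated wild type arrays it had 7.74 and 7.89, with no spot well above background, although the scanner software marked the miRNA as detected there. On the 8 treated arrays the values ran from -5.31 to -1.21. The untreated knockout arrays were the highest, the untreated wild type arrays followed, and no treated array reached either. By scaled level, 69.7% of tested miRNAs did not overlap between untreated genotypes. The shares between treated and untreated groups are those given for miR-146a.

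The log2 level of miR-146b was -4.68 and -4.74 in untreated knockout cells and at the floor on all other arrays. It entered the tested set through untreated knockout cells only, so every other group could only be lower, and its differences are given here without a p-value. Further on, p-values stand beside its flagged differences of responses, where they are no test of a response. The fitted difference between untreated knockout and wild type cells was 0.31 ± 0.054 on the log2 scale. As the wild type arrays had only a bound, set by the floor, this is at least 1.24-fold in the scaling used here. Its direction was fixed by the filter. The ratio of unscaled intensities was 2.69, and within the scanning runs the log2 difference was 0.34 and 0.27. It was 0.95 with the floor lowered by 1 log2 unit, 0.88 by the deposited table's values and 0.64 with all probes used for scaling. Under normexp the direction turned (-0.024).

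In knockout cells the fitted difference of miR-146b from untreated cells was -0.31 ± 0.054 at both times, with all treated arrays at the floor, and under normexp it turned to 0.067 at 24 h. No fold is given, for the same reason as for miR-146a. Neither group was well above background in wild type cells at 12 or 24 h against untreated cells, nor between genotypes at either time, so no difference is given there. The same holds for miR-146a between treated genotypes. The star strand miR-146b* had 4 probes with mean intensities of -13.4 to 3.34 and was well above background on no array.

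The difference of the fitted tunicamycin response of miR-146b between genotypes was -0.31 ± 0.076 at both 12 and 24 h. Since all treated arrays were at the floor, both values are the untreated genotype difference with its sign turned and say nothing of a response.

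Other miRNAs linked to NF-kB and inflammation were taken from a list of 20 names, of which 18 were on the array and 12 were tested, 9 of them besides the 3 described above. In wild type cells 1 of the 9 was called higher and 3 lower at 12 h, and 1 higher and 4 lower at 24 h, beside 6.29% and 7.43% of all tested miRNAs called higher and 38.3% and 33.7% called lower. In knockout cells 0 were called higher and 1 lower at either time, beside 2.86% and 2.29% of all tested miRNAs called higher and 14.3% and 8% called lower. Between untreated genotypes 1 was higher and 1 lower, beside 3.43% called higher and 24.6% called lower. These lower calls include miR-222 in treated cells and miR-132, which entered the tested set through untreated groups and stood at the floor where they were lower. At 12 and 24 h limma called 0 of the 9 between genotypes, against 7.43% of all tested miRNAs called in either direction at 12 h and 9.71% at 24 h. The median change of the 9 was -0.088 at 12 h and -0.37 at 24 h in wild type cells, beside -0.27 and -0.21 over all tested miRNAs. In knockout cells it was -0.38 and -0.55, beside -0.087 and -0.00049.

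Among these, miR-222 represses the cell cycle inhibitor p27. It was well above background on 5 arrays. Its mean log2 level was -4.64 in untreated wild type cells and -4.02 in untreated knockout cells, where it was higher by 0.62 ± 0.074 (limma, adjusted p = 0.000921), and all treated groups stood at the floor. Groups at the floor do not vary, which lowers the shared spread behind this SE and p-value. miR-132, which CREB induces, showed the opposite order: it stood at -4.53 in untreated wild type cells and at the floor in every other group, a fitted untreated difference of -0.49 ± 0.063. It entered the tested set through untreated wild type cells only, so no p-value is given.

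miR-21, an abundant fibroblast miRNA that AP-1 induces, fell in wild type cells, with a change of -1.03 ± 0.18 at 12 h (limma, adjusted p = 0.00338) and of -1.02 at 24 h. In knockout cells its log2 differences of -0.54 at 12 h and -0.55 at 24 h did not pass (limma, adjusted p = 0.0917 and 0.0993). The difference of its response between genotypes was 0.49 at 12 h and 0.48 at 24 h and was not called (limma, adjusted p = 0.315 and 0.310). miR-125b-5p, which represses TNF, fell at 24 h in wild type cells, with a change of -1.03 ± 0.24 (limma, adjusted p = 0.0118), and changed by -0.61 at 12 h (adjusted p = 0.078). In knockout cells miR-125b-5p changed by -0.61 at 12 h and -0.88 at 24 h, without a call (limma, adjusted p = 0.147 and 0.0694). let-7e, a let-7 family member, rose in wild type cells by 0.70 at 12 h (limma, adjusted p = 0.0325) and by 0.87 at 24 h (adjusted p = 0.0141). Its knockout changes of 0.20 and 0.50 were not called (limma, adjusted p = 0.591 and 0.211). For neither miRNA was the difference of the response between genotypes called. These values are from the scaling used here.

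The levels of miR-300, miR-337-5p and miR-431 followed miR-155 most closely over the 12 arrays, with Pearson's r of 0.959 for each. This is a description, since the arrays share slides, scanning runs and scaling values. miR-300, for example, had mean log2 levels of -2.65, -3.40 and -3.44 in untreated, 12 h and 24 h wild type cells and -3.50, -3.85 and -3.78 in untreated, 12 h and 24 h knockout cells. Neither miR-146 form was well above background on the 6 arrays required for such a ranking.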

How the data were processed

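The authors deposited spot intensities from Agilent Feature Extraction 10.7.1.1, which the submitters' processing notes name. They are background-subtracted, on a linear scale and not scaled between arrays, per the file headers. The authors labelled 100 ng of total RNA per array with Cy3, per the labels' protocols. The deposited series table holds log2 values, which equalled log2 of the software's summed signal of detected miRNAs (2034 values, largest difference 1.54e-06).

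Each array's 13715 spots were used without 715 control spots and without outlier spots. No spot was saturated. Spots were averaged for 1857 probes, scaled and floored as described, and a miRNA took the mean of those probes that passed as well above background on the 2 arrays of some group. The floor was set from each array's lowest scaled signal well above background, as the median over the arrays. Values at the floor do not vary, which lowers their spread. The 6 group means were fitted in limma 3.58.1 (R 4.3.3), which had 6 residual and 1.16 prior degrees of freedom. p-values were adjusted by Benjamini-Hochberg over 175 miRNAs in each of 9 comparisons, at a threshold of 0.05. The script was tested on simulated data.

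The members, lists and named miRNAs were chosen with earlier results of these data known. Named are the 3 members, star strands, miRNAs of the same seed, the 3 miRNAs most correlated with a member well above background on at least 6 arrays, and up to 6 other list members with the smallest adjusted p. Alternatives covered scaling, background correction, filter, floor, blocks, the fit and each array left out. normexp with an offset of 50 was run on the median spot signal. The brighter miR-155 probe alone and the unscaled intensities of the 3 miRNAs were added after seeing the data.

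Replicate numbers do not pair all samples. Deviations of same-numbered arrays correlated at 0.744 between untreated groups and at 0.818 to 0.941 between treated groups, but at -0.661 to -0.451 between slides.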

Additional observations from a re-analysis of the deposited data

Results flagged for a closer look

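The fitted response of miR-146b to tunicamycin differed between genotypes by -0.305 at 12 h and by -0.305 at 24 h on the log2 scale, past the threshold (limma, adjusted p = 0.0499 and 0.0447). The threshold was not passed with the scanning run as a block (limma, adjusted p = 0.101 and 0.0728) or with the replicate number as a block (0.0898 and 0.0735). miR-146b entered the tested set only through untreated knockout cells, and the other groups in this contrast were at the floor, so it is no test of a response.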

How the results depend on the processing

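For miR-146a, in treated against untreated cells, and for miR-146b the filter fixed the direction, so a call here is only a side of the threshold. With arrays scaled on all probes, miR-155 changed by -1.06 and -0.62 in wild type cells at 12 and 24 h and differed by -0.49 and -0.56 between genotypes untreated and at 12 h, none past the threshold, and its differences of responses reversed to -0.068 and -0.36. This scaling moved the median change of all 175 miRNAs in each comparison, for example at 12 h in knockout cells from -0.087 to -0.77. miR-146a gave -0.26 in wild type and -0.77 in knockout cells at both times, and miR-146b gave 0.64 between untreated genotypes and -0.64 in the other comparisons, all without a call. Quantile normalization gave -0.91, -0.75, -0.57 and -0.57 for the same 4 miR-155 comparisons, -0.11 and -0.51 for miR-146a in wild type and knockout cells, and for miR-146b 0.38 between untreated genotypes and -0.38 at 12 h in knockout cells and for both differences of responses, all without a call. normexp gave -0.22, -0.059, -0.52 and -0.40 for the 4 miR-155 comparisons and reversed its 24 h knockout change to 0.023. miR-146a then gave -0.065 at 12 h in wild type cells and reversed to 0.22 at 24 h, to 0.048 at 24 h in knockout cells, to -0.13 between untreated genotypes and to 0.065 for the difference of the 12 h responses. miR-146b reversed to 0.067 at 24 h in knockout cells and to -0.024 between untreated genotypes, with -0.010 and -0.28 for the differences of responses. The summed signal gave -0.45, -0.62, -0.99 and -0.024 for the 4 miR-155 comparisons without a call and reversed its 12 h knockout change to 0.51. It gave -0.80 for miR-146a in knockout cells at both times, reversed its untreated genotype difference to -0.035 and its differences of responses to 0.035, and gave 0.33 and -0.33 for those of miR-146b, without a call for any of these. The deposited table gave -0.017, -0.85 and -0.43 for miR-155 in wild type cells at 12 and 24 h and between untreated genotypes, and reversed its 12 h knockout change to 0.79 and its genotype differences at 12 and 24 h to 0.37 and 0.14. It gave 0.88 for miR-146b between untreated genotypes, without a call, and has no value for miR-146a or miR-146b in treated cells. The cause was not tested, beyond the summed miR-155 signal given above.

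Calls were also lost with the floor lowered by 1 log2 unit for miR-155 at 12 h in wild type cells (-0.69) and between genotypes at 12 h (-1.002), and its difference of 12 h responses reversed to -0.066. With no filter on dim probes they were lost for both of these miR-155 comparisons (-0.69 each) and for miR-146a in knockout cells (-0.21 at both times). A fit to the compared groups alone has fewer samples, and lost the 12 h genotype difference of miR-155 (-0.69), the knockout changes of miR-146a (-0.43) and of miR-146b (-0.31) and the 12 h difference of responses of miR-146b (-0.31). On the brighter probe alone, miR-155 gave -0.60 at 12 h in wild type cells and -0.92 between genotypes at 12 h, and its difference of 12 h responses reversed to -0.037. No member had a probe well above background on all arrays, so that filter gave no value.

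With the replicate number as a block, the 12 h genotype difference of miR-155 (-0.69) and the differences of responses of miR-146b (-0.31 at both times) lost their calls, as did the latter with the scanning run as a block (-0.31). The replicate block changed no other call of the 3 miRNAs.

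With each array left out in turn, miR-155 ranged from -0.79 to -0.59 and from -0.99 to -0.76 in wild type cells at 12 and 24 h, from -0.64 to -0.26 and from -0.53 to -0.35 in knockout cells, and from -1.03 to -0.84, from -0.89 to -0.50 and from -0.61 to -0.38 between genotypes untreated, at 12 h and at 24 h. Its differences of responses ranged from 0.050 to 0.44 and from 0.32 to 0.55. miR-146a ranged from -0.42 to -0.32 in wild type cells, from -0.56 to -0.30 in knockout cells, from -0.077 to 0.19 between untreated genotypes and from -0.19 to 0.077 for the differences of responses. miR-146b ranged from 0.27 to 0.34 between untreated genotypes and from -0.34 to -0.27 elsewhere. A lone array was assumed to vary like the other groups.

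Counts of called miRNAs over all 175 were 78, 72, 30 and 18 for tunicamycin in wild type cells at 12 and 24 h and in knockout cells at 12 and 24 h, and 49, 13 and 17 between genotypes untreated, at 12 and at 24 h. Scaled on all probes, limma called 0 in each, with 13, 11, 10, 11, 5, 0 and 2 at an unadjusted p under 0.05. Over the other settings that keep all arrays, they reached at most 85, 91, 34, 25, 95, 19 and 21. In wild type cells at 12 h the count fell to 7 with quantile normalization and 5 with normexp. It was 29 with the summed signal and 0 with the deposited table. The shares of called miRNAs given above are those of the scaling used here. With 1 array left out, the count in knockout cells at 12 h was 72 without the first 12 h knockout array and 13 without the second untreated knockout array. At 24 h it was 32 without either 12 h knockout array and 8 without the second 24 h knockout array. Between genotypes at 12 h it was 35 and 23 without the first and second 12 h knockout array and 6 without the second 12 h wild type array, and at 24 h it was 29 without either 12 h knockout array, and 9 and 10 without the second 24 h wild type and knockout array. The number of arrays and, in treated cells, the signal over background of the second replicates limit the precision.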
